A study of Mus musculus with 2 samples.

Results

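Broad H3K4me1 regions that lie far from any EP300 peak were described in the mouse melanocyte line melan-a, which is immortal in culture. They were chosen by measured values of the lists themselves, as the H3K4me1 regions that were at least 1200 and under 2500 bp long and had no EP300 peak of either replicate list within 5000 bp of their edges, and they are called far regions here. There were 2858 of them among 59923 H3K4me1 regions (4.77%) and among the 6468 regions of that length (44.2%), and they covered 4.44 Mb, or 11.5% of the bases in the list. The choice rests on region length and on the position of EP300 peaks, so neither is a result. For comparison, 1309 regions of the same length overlapped by at least 1 bp an EP300 peak that was found in both lists. The remaining regions of that length either overlapped an EP300 peak found in 1 list only (1091 regions) or had a peak 0 to 5000 bp away (1210 regions).

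Histone H3 monomethylated at lysine 4 (H3K4me1) is laid down mainly by the MLL3 and MLL4 methyltransferases and marks enhancers, both those in use and those that are primed, as well as the flanks of promoters. EP300 is a histone acetyltransferase and coactivator that transcription factors bring to active enhancers, where it acetylates H3K27. At an occupied enhancer the nucleosomes that carry H3K4me1 typically stand on either side of a stretch of open DNA to which the factors and EP300 bind. H3K4me1 can also occur without EP300, for example at primed enhancers.

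The series holds 2 samples of melan-a cells, whose strain is given as C57BL/6 Ink4a -/-, 1 precipitated with an antibody to p300 and the other with an antibody to H3K4me1. Both come from a single cell line without any treatment, so there is no comparison of conditions. Each sample represents 2 replicates. EP300 was deposited as 2 lists of 8451 peaks (from 31439027 filtered ChIP tags) and 10351 peaks (from 32355042), of which 3622 and 3603 were found in the other list. H3K4me1 was deposited as 1 list for both replicates, with edges on a 50 bp grid, and its depth is unknown. Positions refer to mm9 and were not matched to genes. Regions of 1 list are not replicates and may share neighbours, so differences are given with 95% intervals that cover counting error only, and no p-value is given.

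Far regions lay over 5000 bp from EP300 by choice, and their distances beyond this limit varied widely. The median distance to the nearest EP300 peak was 25.0 kb, with quartiles at 12.1 kb and 55.9 kb. By distance, 558 far regions (19.5%) lay 5 to 10 kb away, 649 (22.7%) 10 to 20 kb, 838 (29.3%) 20 to 50 kb, 472 (16.5%) 50 to 100 kb and 341 (11.9%) over 100 kb. Just inside the distance limit, 144 regions lay up to 6000 bp from EP300, and 69.4% of them had an H3K4me1 neighbour within 2000 bp. Just outside it, 170 regions that lay over 4000 and up to 5000 bp from EP300 had such a neighbour in 68.8% of cases. At the length limits, the list held 339 and 330 regions far from EP300 in the last length class below 1200 bp and at 1200 bp, with median percentile ranks of 75.2 and 77.0. It held 22 in the longest class admitted and 21 at 2500 bp, the first beyond it.

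The far regions ranked high in this list, as did the other regions of their length, but lower than the comparison regions. Percentile rank is the place of a region in the authors' ranking by score, with 100 the strongest. The far regions had a median percentile rank of 83.2 (interval 82.5 to 83.9), with quartiles at 71.7 and 91.7. Among them the median rose with length, from 78.7 at 1200 to 1350 bp to 89.0 at 1900 bp or more. Length was part of the choice, so a high rank within the list is not a result apart from it. The comparison regions had a median of 91.1 (interval 90.3 to 91.9), and the 2 intervals did not overlap. The median of the authors' maximum log2 fold change was 4.25 in the far regions and 4.47 in the comparison regions. Far regions had the lower median rank on 19 of 20 chromosomes. The 1000 best-ranked regions of the whole list included 137 far regions (4.79% of the far set) and 162 comparison regions (12.4% of that set), among 460 regions of the length (7.11%). The best 100 included 8 and 27, among 51 of the length. Median length within the limits was 1450 bp (interval 1450 to 1500) in far and 1550 bp (interval 1500 to 1550) in comparison regions. These intervals meet, so the lengths were not called different, and length was part of the choice. The -log10 p-values given by the authors stop at 100, a ceiling reached by 83.5% of far and 98.4% of comparison regions, so they did not serve to rank regions.

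The 10 far regions with the best rank (outside chromosome 18) ranked 16 to 115 in the list, with a maximum log2 fold change of 5.28 to 6.17. The first lay at chromosome 1, 14170950 to 14172849 (1900 bp, maximum log2 fold change 6.17), with the nearest EP300 peak 28.6 kb away and a neighbouring region across a gap of 400 bp. The second, at chromosome 12, 85521050 to 85523299 (2250 bp, 5.72), had a neighbour at 500 bp and EP300 at 11.1 kb. The third, at chromosome 1, 93869400 to 93870599, had a neighbour at 300 bp and was 1200 bp long, the shortest length admitted. The region at chromosome 6, 83392050 to 83393349, had a neighbour on each side, at 1400 bp and 600 bp. In contrast, 3 of the 10 had no neighbour within 2000 bp. Of these, 1 was on chromosome 4 (117662850 to 117665199), 1 on chromosome 2 (167614600 to 167616099) and 1 on chromosome 12 (103870700 to 103871999). The last 3 of the 10 had no EP300 peak within 50 kb. The region on chromosome 2 at 26089250 to 26091299 had its nearest EP300 peak at 73.5 kb, that on chromosome 15 at 73450100 to 73452199 at 83.4 kb, and that on chromosome 11 at 59994600 to 59995999 at 73.9 kb. Strong and broad H3K4me1 was therefore present in this list at over 50 kb from the nearest called EP300 peak.

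The 5 best-ranked comparison regions ranked 1, 2, 5, 13 and 14. In this order they were found on chromosome 11 (116676400 to 116678199), on chromosome 14 (32475950 to 32477499), on chromosome 19 (10352500 to 10354199), on chromosome 1 (137556400 to 137558349) and on chromosome 2 (32475200 to 32476799). Each of them had a neighbour at 100 bp to 450 bp on at least 1 side. The strongest EP300 peaks on them were 4.26-fold to 10.2-fold enriched per the authors.

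Far regions had H3K4me1 neighbours less often than comparison regions. A neighbour within 2000 bp was found for 1801 of 2858 far regions (63.0%, interval 61.2% to 64.8%) and for 1207 of 1309 comparison regions (92.2%, interval 90.6% to 93.6%). The difference was -29.2 percentage points (interval -31.4 to -26.8), and it had this direction on 20 of 20 chromosomes. On X, with only 6 comparison regions, the shares were close (80.3% and 83.3%), so its direction rests on few regions. Over all H3K4me1 regions of any length the share was 65.8%, and over all regions of this length it was 76%, so the far regions were close to the list as a whole. Neighbours on both sides were found for 476 far regions (16.7%) and 536 comparison regions (40.9%), a difference of -24.3 points (interval -27.3 to -21.3), also in this direction on 20 of 20 chromosomes. The share was 16.3% over all regions and 27.2% over regions of the length. Within 1000 bp, a neighbour was present for 50.6% of far and 83.3% of comparison regions, against 55% of all regions and 64.4% of those of the length. Counting neighbours, 1057 far regions had 0, 1086 had 1, 513 had 2, and 202 had 3 or more, with a mean of 0.965 against 1.55 in the comparison regions.

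The share was lower in far regions in each class of length and rank. It was 61.5%, 60.3%, 63.7% and 69.2% in far regions of 1200 to 1350, 1400 to 1550, 1600 to 1850 and 1900 bp or more, and 94.6%, 93.3%, 90.4% and 89.8% in comparison regions of these lengths. From the lowest to the highest of 5 rank classes it went from 57.5% to 69.4% in far regions, and from 84.8% to 94.4% in comparison regions. After the comparison regions were reweighted to the lengths and ranks of the far regions, their share was 91.2% and the difference was -28.2 points (interval -30.7 to -25.6).

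**Figure D1:**
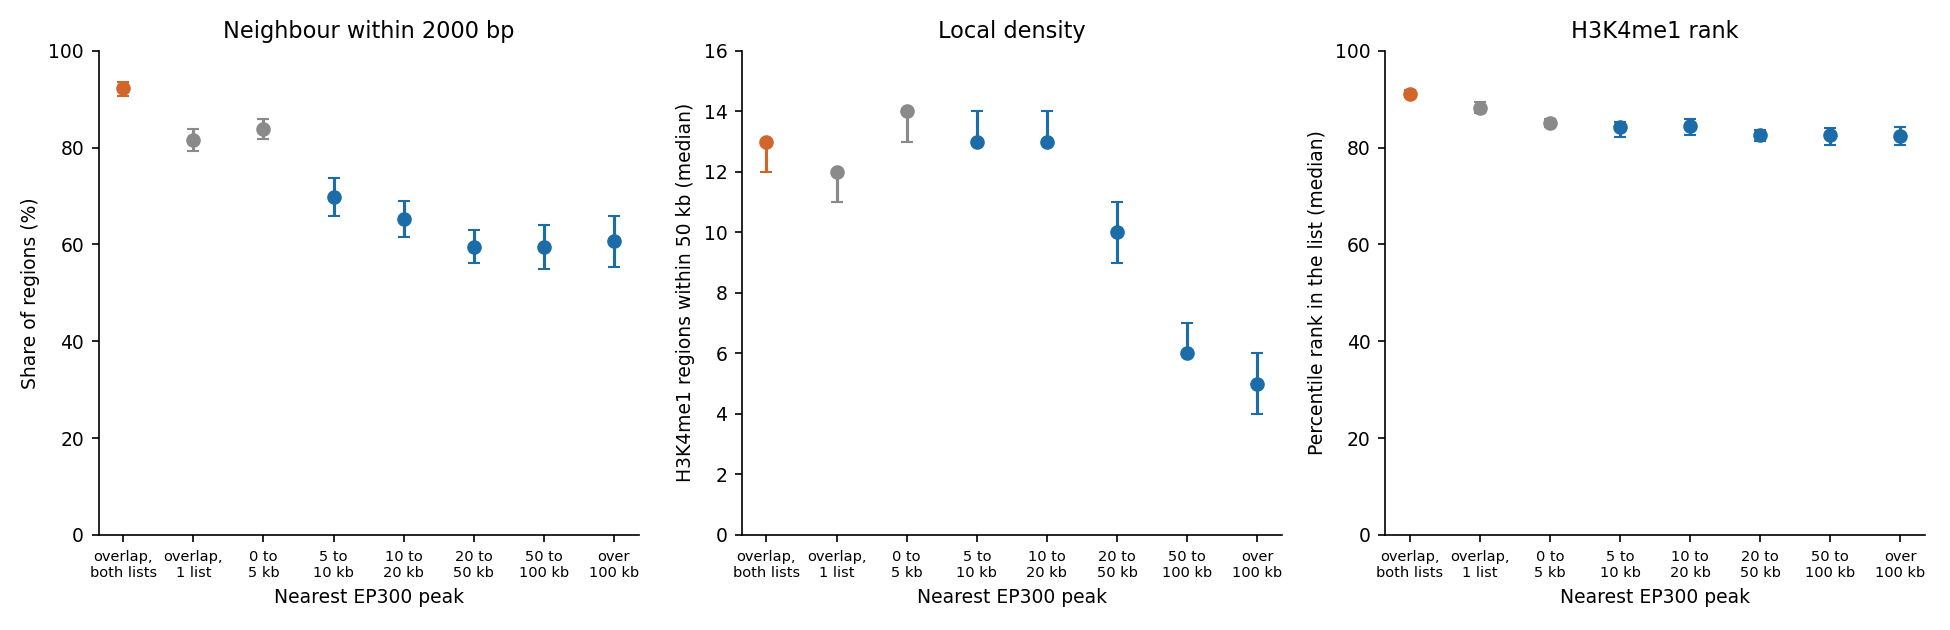
Regions of at least 1200 and under 2500 bp by the position of the nearest EP300 peak: share with an H3K4me1 neighbour within 2000 bp (left), median number of H3K4me1 regions within 50 kb (middle) and median percentile rank (right). Orange, comparison regions; grey, regions with a single-list or nearby peak; blue, far regions; bars are 95% intervals. The neighbour share goes from 92.2% at the left to 59.5% to 60.7% beyond 20 kb, and the density from 13 to 5 regions.

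The difference was concentrated on the side of the comparison regions where the EP300 summit lay. Only 165 comparison regions (12.6%, interval 10.9% to 14.5%) held the summit of their strongest shared EP300 peak. For the other 1144 (87.4%) the peak overlapped the region while its summit lay beyond an edge, and in 1000 of these the summit fell in a gap of at most 2000 bp between the region and its neighbour. On the side of the summit, 94.1% (interval 92.5% to 95.4%) of the 1144 regions had a neighbour within 2000 bp. On their other side, 46.6% (interval 43.7% to 49.5%) had one. Far regions, counted by single sides, had a neighbour on 2277 of 5716 sides (39.8%, interval 38.6% to 41.1%). The far sides were thus closer to the sides away from EP300 than to the sides that face it, although the intervals of 39.8% and 46.6% did not overlap. Set against the 165 comparison regions with the summit inside, a choice made after the data were seen, far regions did not differ detectably. The shares were 63.0% and 63.6% (difference -0.620 points, interval -7.80 to 7.15) for any neighbour, and 16.7% and 17.6% (difference -0.921, interval -7.58 to 4.32) for both sides. The lower neighbour share of far regions was seen over the whole comparison set, most of which EP300 overlapped at an edge. It was not detectable against regions that EP300 overlapped at its summit. By the choice, no gap of at most 2000 bp beside a far region could hold an EP300 peak. The sides that face a summit thus have no counterpart in the far set, and these contrasts are not independent of the choice.

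**Figure D2:**
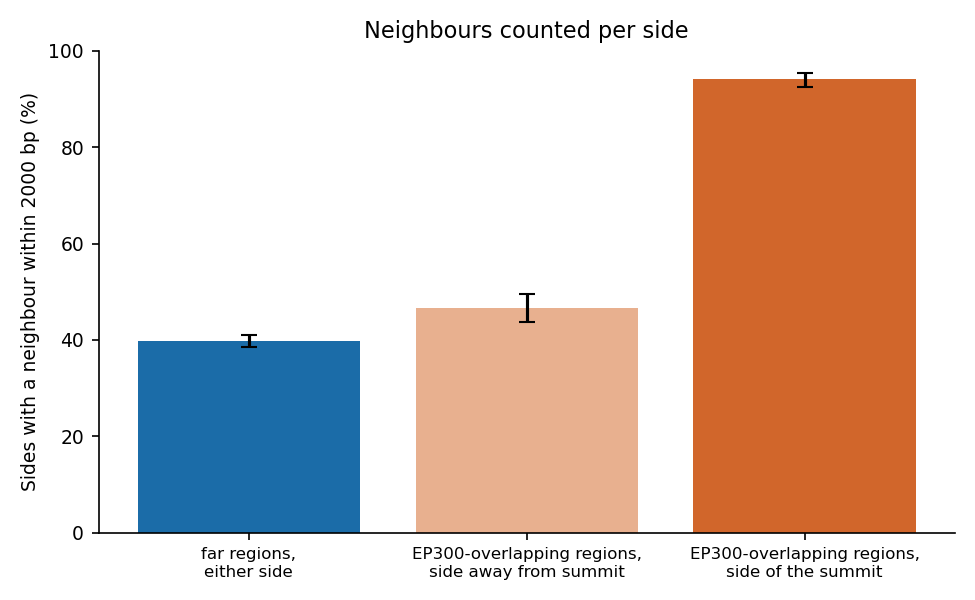
Share of region sides with an H3K4me1 neighbour within 2000 bp, for the 5716 sides of far regions and for the 1144 comparison regions whose EP300 summit lay beyond an edge; bars are shares and whiskers 95% intervals. The side of the summit reached 94.1%, against 46.6% on the other side and 39.8% in far regions.

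Nearest gaps of far regions were more spread out than those of comparison regions, and their slightly narrower median did not hold under several alternatives. Where both sides had a neighbour the nearer was taken, which applied to more comparison regions (40.9%) than far regions (16.7%). Gaps of comparison regions away from the EP300 summit, given below, were not less spread out than those of far regions. The nearest neighbour of the 1801 far regions that had one within 2000 bp stood at a median of 450 bp (interval 450 to 450), with quartiles at 250 bp and 850 bp. In the 1207 comparison regions the median was 500 bp (interval 500 to 500), with quartiles at 300 bp and 700 bp. The difference is 1 step of the 50 bp grid. Gaps of at most 200 bp made up 20.9% of far and 15.4% of comparison gaps, gaps of 500 to 950 bp 25.8% and 43.5%, and gaps over 1000 bp 19.8% and 9.61%. In classes of 100 bp, the fullest class was 300 to 350 bp in far regions (13.8%) and 500 to 550 bp in comparison regions (15.3%). The narrower median was found on 15 of 20 chromosomes, with 1 tied. The call was lost without EP300 replicate 1 (450 bp in both sets), and also without EP300 replicate 2 (450 bp and 500 bp), with regions of at least 1500 bp (450 bp and 500 bp) and in the upper 50% of the H3K4me1 list (500 bp and 550 bp). The order turned with a search up to 5000 bp (575 bp and 500 bp) and against comparison regions with the summit inside (450 bp and 400 bp). Neither of these reversed differences was called.

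Gaps beside comparison regions were split by whether they held the EP300 summit. The 1000 that did had a median of 600 bp (interval 600 to 650) and quartiles at 450 bp and 812.5 bp, with 4.50% at most 200 bp wide and 14.4% over 1000 bp. A gap has to be wide enough to hold a summit, so few narrow ones could be among them. The 533 gaps on the side away from the summit had a median of 550 bp (interval 500 to 650), which overlaps the interval of the summit gaps, and a wider spread, with quartiles at 300 bp and 1150 bp and 28.3% over 1000 bp. All 2277 gaps on either side of far regions had a median of 500 bp (interval 500 to 550), with quartiles at 300 bp and 1000 bp. Of these, 17.04% were at most 200 bp wide and 24.4% over 1000 bp, and 17.3% of the gaps away from the summit were at most 200 bp wide.

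**Figure D3:**
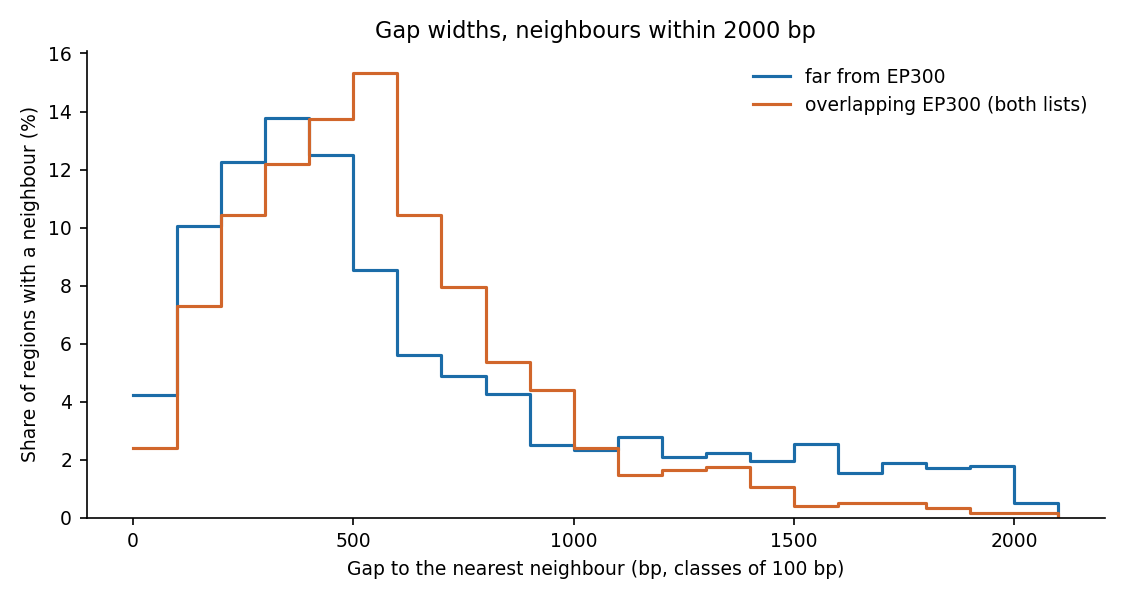
Width of the gap to the nearest H3K4me1 neighbour in classes of 100 bp, as a share of the 1801 far regions (blue) and 1207 comparison regions (orange) with a neighbour within 2000 bp. The blue line is highest at 300 to 350 bp and stays above the orange one beyond 1500 bp, and the orange line is highest at 500 to 550 bp.

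The neighbours of far regions were shorter and weaker than those of comparison regions, but not than the list as a whole, whose median length was 500 bp. The 2226 distinct regions next to a far region had a median length of 600 bp (interval 550 to 600) and a median percentile rank of 56.7 (interval 54.6 to 59.5). Those next to comparison regions, 1708 in number, were 900 bp long (interval 900 to 950) and ranked at 80.6 (interval 78.8 to 82.3). Of the neighbours of far regions, 366 (16.4%) were themselves 1200 bp or longer and 282 (12.7%) were far regions, whereas 34.3% of those next to comparison regions were 1200 bp or longer. Part of the second set also overlapped EP300, so these are not independent of it.

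Regions joined by gaps of at most 2000 bp were taken as islands. Of the far regions, 1057 (37.0%) stood alone, 823 (28.8%) were in islands of 2 regions and 322 (11.3%, interval 10.1% to 12.5%) in islands of 5 or more. In the comparison set 102 (7.79%) stood alone and 342 (26.1%, interval 23.8% to 28.6%) were in islands of 5 or more. Within islands, a far region was the longest member in 81.8% of cases (interval 80.0% to 83.6%) and the best-ranked in 66.5% (interval 64.3% to 68.7%), against 64.3% (interval 61.5% to 67.0%) and 53.9% (interval 51.1% to 56.8%) of comparison regions. The islands of far regions spanned a median of 3.85 kb, against 5.15 kb. Both sets were chosen at 1200 bp or more in a list with a median length of 500 bp, so a high share of longest members follows from the choice. The shares of longest and best-ranked members also depend on island size. Far regions stood in smaller islands, and the sets were not compared at equal island size.

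The 5 far regions with the most neighbours (outside chromosome 18) had 4 to 6 within 2000 bp. The region at chromosome 4, 43409200 to 43410849, had 6, in an island of 10 regions, with EP300 at 11.9 kb. At chromosome 2, 3214050 to 3215749, a far region had 5 neighbours, and no EP300 peak lay within 162 kb. That at chromosome 3, 79731700 to 79733399, also with 5, stood in a stretch rich in both H3K4me1 and EP300. Within 50 kb it had 38 other H3K4me1 regions and 19 entries of the EP300 lists, where a locus found in both lists counts for each. The nearest EP300 peak lay at 6371 bp. The others lay at chromosome 8, 75851550 to 75852999, with 5 neighbours, and chromosome 1, 93955950 to 93957999, with 4 and a rank of 887. Many H3K4me1 neighbours within 2000 bp of a far region were thus seen both beside and away from EP300-rich stretches. Within 50 kb, the region on chromosome 2 had 10 other H3K4me1 regions, the same as the median of the far set.

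In regions with a neighbour within 1000 bp on 1 side only, the highest score tended to lie in the part of the region that faced it. In far regions the maximum lay on the side of the neighbour in 653 of 1169 (55.9%, interval 53.0% to 58.7%), and in comparison regions in 470 of 758 (62.0%, interval 58.4% to 65.5%). These intervals overlapped, as did those of the 54.7% and 60.7% found by maximum fold change. With a neighbour within 2000 bp on 1 side only, the shares by score were 56.0% (interval 53.3% to 58.7%) in far and 63.8% (interval 60.02% to 67.4%) in comparison regions, and by fold change 55.3% (interval 52.6% to 58.0%) and 63.3% (interval 59.6% to 67.0%), without overlap. The place of the smallest p-value, which was at its ceiling in most regions, did not show this difference. By it the shares were 58.3% in far and 55.3% in comparison regions within 1000 bp. Within 2000 bp they were 56.8% and 55.7%, and the intervals overlapped at both distances.

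The wider surroundings of far regions held fewer H3K4me1 regions than those of comparison regions, except for far regions within 20 kb of EP300, described below. Within 50 kb of their edges far regions had a median of 10 other H3K4me1 regions (interval 10 to 10), with quartiles at 6 and 15, against 13 (interval 12 to 13) in the comparison set, with quartiles at 8 and 18. The median was lower on 19 of 20 chromosomes. The covered length within 50 kb had a median of 6800 bp against 9650 bp. At least 20 regions were found around 330 far regions (11.5%, interval 10.4% to 12.8%) and 268 comparison regions (20.5%, interval 18.3% to 22.8%). There was no other region within 50 kb of 43 far regions (1.505%, interval 1.09% to 2.02%) and of 1 comparison region. These shares were not taken over the whole list, so they describe the 2 sets only. EP300 peaks 5 to 50 kb away, outside the distance used to choose the far regions, were absent for 28.4% of far regions (interval 26.8% to 30.1%) and 17.8% of comparison regions (interval 15.8% to 20.0%). Their number had a median of 2 in each set, counted as entries of both lists and not as distinct loci.

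Density varied among far regions with their distance from EP300, but their own strength hardly did. The median number of H3K4me1 regions within 50 kb was 13 at 5 to 10 kb and at 10 to 20 kb from EP300, 10 at 20 to 50 kb, 6 at 50 to 100 kb and 5 over 100 kb. Far regions within 20 kb of EP300 thus had the same median as the comparison regions. The share with a neighbour within 2000 bp went from 69.9% (interval 65.9% to 73.7%) at 5 to 10 kb to 59.5% (interval 56.1% to 62.9%) at 20 to 50 kb and 60.7% (interval 55.3% to 65.9%) over 100 kb. The share with neighbours on both sides went from 20.6% (interval 17.3% to 24.2%) to 10.9% (interval 7.76% to 14.6%). The median percentile rank was 84.2 (interval 82.2 to 85.3) at 5 to 10 kb and 82.4 (interval 80.6 to 84.2) over 100 kb, and the median maximum log2 fold change was 4.26 and 4.23. The nearest-gap median was 400 to 500 bp in every distance class.

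Some far regions came in runs. With edges within 10 kb of each other, 738 of the 2858 far regions (25.8%) formed 317 runs of 2 or more, and 71 runs held 3 or more. In the comparison set 36.2% of regions were in runs of 2 or more, and 31 runs held 3 or more. The longest run outside chromosome 18 had 6 far regions at chromosome 2, 35535950 to 35559899, a span of 23950 bp with 8 H3K4me1 regions in all. Its members ranked 6762 to 18905, and the nearest EP300 peak was 10.4 kb away. The next 4 runs had 5 far regions each. They were on chromosome 2 (27554000 to 27572699), on chromosome 4 (151582650 to 151602949), on chromosome 7 (122666000 to 122692799) and on chromosome 15 (79886100 to 79912499), with EP300 at 17.1 kb, 14.8 kb, 10.4 kb and 10.1 kb. Each of these runs held at most 3 H3K4me1 regions that were not far regions.

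Chromosome X held more of the far regions than of the comparison regions. It carried 61 far regions (2.13%) and 6 comparison regions (0.458%), a difference of 1.68 points (interval 0.962 to 2.32). Of the 88 regions of the length on X, 69.3% were far regions, compared with 33.6% to 50.5% on the 19 autosomes. The EP300 lists had only 52 and 61 peaks on X. Both sets were chosen by the position of EP300, so a chromosome with few EP300 peaks tends to hold more far and fewer comparison regions. The shares by chromosome therefore describe the choice and are not a result apart from it. With intervals widened to 99.75% for 20 chromosomes, X was higher (0.466 to 2.71 points) and chromosome 3 lower, with 112 far (3.92%) and 81 comparison regions (6.19%, interval of the difference -4.79 to -0.137). Chromosome 6 (4.44% and 6.65%, interval -4.81 to 0.0244), chromosome 7 (8.50% and 6.04%) and chromosome 11 (9.20% and 6.95%) did not pass. X passed with EP300 replicate 1 left out and with replicate 2 left out. Chromosome 3 passed without replicate 1 and was lost without replicate 2, where chromosomes 6 and 11 passed. With regions of at least 1500 bp, of which fewer remained, no chromosome passed at the widened level, and the difference on X was 1.69 points (95% interval 0.568 to 2.70).

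**Figure D4:**
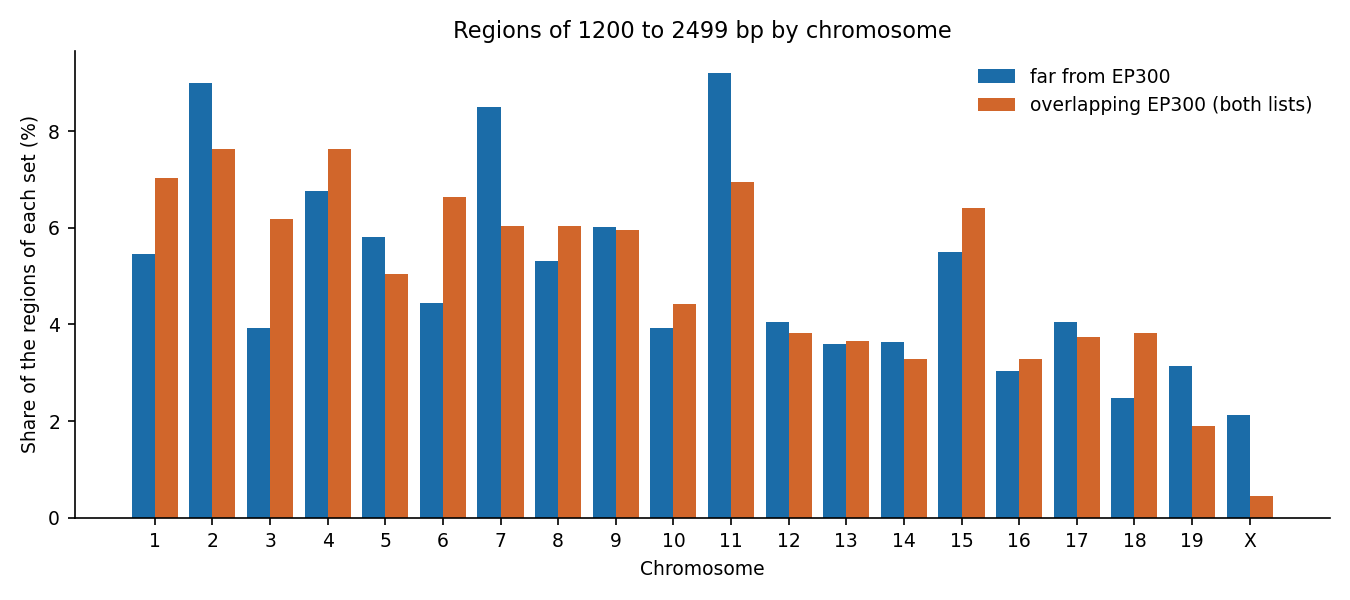
Share of the 2858 far regions (blue) and of the 1309 comparison regions (orange) on each chromosome, in percent of each set. On X the bars stand at 2.13% and 0.458%, and on chromosome 3 at 3.92% and 6.19%.

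The far regions of X had neighbours often. They were also distant from EP300, which is tied to the choice and to the few EP300 peaks on X. Their median distance to EP300 was 63.6 kb, against 24.2 kb on autosomes, and 25 of the 61 (41.0%) lay over 100 kb away. Among the 6 comparison regions of X, 83.3% had a neighbour within 2000 bp. Such a neighbour was found for 49 of the far regions of X (80.3%, interval 68.2% to 89.4%), compared with 62.6% of autosomal far regions. Their median percentile rank was 85.4 against 83.1, their median gap was 450 bp, and the median number of H3K4me1 regions within 50 kb was 10 on X and on autosomes. The 3 best-ranked were at 131254050 to 131255349 (rank 440), 148440550 to 148441999 (rank 447) and 99138200 to 99140349 (rank 663), and EP300 was 336 kb, 637 kb and 208 kb away.

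The 5 far regions with the greatest distance to EP300 were all on X. At 34287800 to 34289849 (2050 bp, rank 6054) and 34370550 to 34372649 (2100 bp, rank 874) the nearest peak was 11.1 Mb and 11.02 Mb away, and each had a neighbour, at 400 bp and 550 bp. The region at 35555450 to 35556699 was 9.84 Mb from EP300 and had no neighbour within 2000 bp. Those at 158841550 to 158842799 and 159434350 to 159435599 were 1.66 Mb and 1.06 Mb away. The first of these had no other H3K4me1 region within 50 kb, and the second had neighbours at 1100 bp and 1900 bp.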

How the data were processed

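ChIP-seq of EP300 and H3K4me1 in melan-a cells was analysed from 3 deposited lists, in mm9 coordinates per the submitters' processing notes. EP300 peaks were called with MACS 1.4.1 20110627 for each replicate against its own control, at a p-value threshold of 1e-05, per the file headers. The authors' deposited EP300 lists give a count of tags, a score of 10 times the -log10 p-value, a fold enrichment (ratio) and, in percent, a false discovery rate. The authors' deposited H3K4me1 list gives a score, a maximum log2 fold change, a -log10 p-value and a false discovery rate as a fraction. Aligner, H3K4me1 caller and pooling: not given in the sources used here.

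Distances count the bases between edges. EP300 peaks around a region were counted over both lists without merging, so a locus found in both counts for each. Shares have Clopper-Pearson intervals, differences of shares Newcombe intervals, and medians order-statistic intervals, called different where they do not overlap. Reweighting used 4 length classes by 5 rank classes. Named regions, outside chromosome 18, were the 10 best-ranked far regions, the 5 with most neighbours, the 5 farthest from EP300, the 5 longest runs, the 3 best-ranked on X and the 5 best-ranked comparison regions. Members, lists and rules were chosen with earlier results of these data known. Functions were tested on simulated data. Python 3.11.15, numpy 2.4.6, scipy 1.17.1 and pandas 2.3.3 were used. Genes, start sites and base composition were not analysed here, since no mm9 genome was used.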

Additional observations from a re-analysis of the deposited data

How the results depend on the processing

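Of 93 alternatives (89 planned and 4 added after the data were seen), 83 were counted as the same. This means that direction and call were kept, except for the count of chromosomes with a different share. There a similar number of chromosomes was enough, even where other chromosomes passed, as without EP300 replicate 2. All alternatives run on neighbours within 1000 bp, neighbours per region, density, rank and the share on X kept the direction and the call. The comparison regions with the EP300 summit inside were not run for these results, so how they hold against that set is unknown. With 1 EP300 replicate left out, comparison regions were those that overlapped any peak of the remaining list. They numbered 1944 without replicate 1 and 1665 without replicate 2, and far regions numbered 3450 and 3781. On these changed sets the difference in neighbours was -22.2 to -23.1 points, and that in neighbours on both sides -19.3 to -19.6. With comparison regions holding the EP300 summit these became -0.620 and -0.921 points. The gap difference was 0 without EP300 replicate 1 and -50 bp, no longer called, without replicate 2, with regions of at least 1500 bp and in the upper 50% of the H3K4me1 list. It reversed to 75 bp with neighbours up to 5000 bp and to 50 bp with the summit inside, but neither reversed difference was called. The cause was not tested. Chromosomes with a different share were 2, but 1 with a far distance of 2000 bp (X), 0 with at least 1500 bp, where fewer regions remained, and 2 to 3 with 1 replicate left out. No paired analysis was possible because the 2 samples are different targets and no test compared replicates. How deeply H3K4me1 was sequenced is unknown, and an EP300 peak below the threshold would not be listed, so a far region is not shown to lack EP300.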

Other observations

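Regions of the same length with an intermediate relation to EP300 fell between the far and the comparison regions in most respects. Of the 1091 regions that overlapped a peak found in 1 list only, 81.7% (interval 79.2% to 83.9%) had a neighbour within 2000 bp, and of the 1210 with a peak 0 to 5000 bp away 83.9% (interval 81.7% to 85.9%). Their median percentile ranks were 88.2 (interval 87.0 to 89.3) and 85.0 (interval 84.3 to 86.0). In density the second set was not intermediate, with a median of 14 H3K4me1 regions within 50 kb (interval 13 to 14) against 13 (interval 12 to 13) in the comparison set and 10 in the far set. It also had the most regions in islands of 5 or more, at 32.0% (interval 29.4% to 34.7%).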
